A study of Saccharomyces cerevisiae with 8 samples.

Results

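The 26S proteasome of budding yeast, Saccharomyces cerevisiae, is built from 33 subunits whose genes were taken by systematic name from the 6534 genes of the count table. All 33 were found, each under 1 systematic name, and all passed the filter on low counts that kept 5954 genes for testing. They fall into the alpha ring (7 genes), the beta ring (7), the ATPase ring (6), the other subunits of the base (4) and the lid (9). The libraries were made from polyadenylated RNA of bulk cultures. The groups were wild type or mub1 deletion, each given 0 or 20 µg/ml of Calcofluor white (CFW, a dye that binds chitin in the cell wall) for 5 h. The labels give the same strain, BMA41, for both genotypes, and each of the 4 groups has 2 libraries.

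The proteasome degrades proteins that carry ubiquitin chains. Its core particle is a stack of alpha and beta rings that encloses the proteolytic sites, and its regulatory particle, made of base and lid, recognises, unfolds and deubiquitinates substrates. In yeast the transcription factor Rpn4 binds a short promoter element (the proteasome-associated control element, PACE) ahead of most subunit genes. Rpn4 is itself a short-lived proteasome substrate, marked by the ligase Ubr2 together with Mub1 and the conjugating enzyme Rad6, so that a loss of Mub1 is known to lengthen its life.

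The libraries held between 24147195 and 31677985 counts. MUB1 had 1068, 1066, 1042 and 1226 counts in the 4 wild-type libraries and 1, 0, 0 and 1 in those labelled mub1. Marker genes of laboratory strains also differed between the genotypes. LEU2, URA3 and MET17 had at most 2 counts in any wild-type library and at least 2621 in any mub1 library, whereas TRP1 had 909 to 989 counts in the wild type and 0 in mub1. The genotypes may therefore also differ in strain background, although the labels name the same strain. What follows from MUB1 and what follows from these markers or such a background cannot be told apart, since all part the same libraries. Whether the replicates came from separate cultures is not stated, and the p-values below then speak for the spread of these libraries only, which may be technical. Between replicate libraries the subunit levels differed little: the median absolute log2 difference over the 33 genes was 0.03 to 0.04 in each group, and the largest was 0.12, for RPN12 in the wild type with CFW.

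The PACE letters GGTGGCAAA, searched on both strands from 250 bases before to 50 bases after the start codon in the R64 genome, were found for 27 of the 33 subunit genes (81.8%) and for 72 of 6001 protein-coding genes (1.20%). Each of the 27 held a single match, 75 to 174 bases ahead of the start codon with a median of 111. The letters read in the direction of the gene for 19 of them and on the opposite strand for 8. The 6 others, PRE5, PUP1, RPN8, RPN10, RPN13 and SEM1, held no exact match and also none of the first 7 letters, GGTGGCA. Each of the 6 held exactly 1 stretch that differs from the 9 letters at 1 position. In PRE5, PUP1 and RPN8 it was G1A, counted from 1 at the 5′ end of GGTGGCAAA (motif letter, position, genome letter), and in RPN10, RPN13 and SEM1 it was A7G. AGTGGCAAA occurred in 43 of the 6001 windows (0.717%) and GGTGGCGAA in 27 (0.450%). With 1 different letter allowed anywhere, 454 windows (7.57%) held a match, all 33 subunit genes among them. The search with 1 different letter was added after the exact matches were seen. A match is a stretch of letters, not evidence of binding.

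Windows of the RefSeq R64 genome around the match follow, 5′ to 3′ on the strand of the gene with the 9 letters in capitals. The first 4 hold the exact letters and were chosen because RPT6 and PRE4 differed most between the genotypes, PRE3 responded most to CFW in the wild type, and PRE9 differed least. The 6 that follow are all subunit genes without an exact match.
RPT6 (YGL048C, chrVII:411337-411395, minus strand): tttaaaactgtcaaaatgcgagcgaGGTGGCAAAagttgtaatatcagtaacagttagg
PRE4 (YFR050C, chrVI:249944-250002, minus strand): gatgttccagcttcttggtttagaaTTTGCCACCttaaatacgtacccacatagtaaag
PRE3 (YJL001W, chrX:435020-435078, plus strand): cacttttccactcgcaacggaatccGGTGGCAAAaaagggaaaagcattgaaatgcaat
PRE9 (YGR135W, chrVII:761208-761266, plus strand): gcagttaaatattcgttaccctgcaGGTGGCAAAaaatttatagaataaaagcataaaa
PRE5 (YMR314W, chrXIII:901537-901595, plus strand): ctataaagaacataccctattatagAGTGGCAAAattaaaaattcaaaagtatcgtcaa
PUP1 (YOR157C, chrXV:631876-631934, minus strand): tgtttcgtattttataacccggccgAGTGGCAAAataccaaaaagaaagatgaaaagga
RPN8 (YOR261C, chrXV:817070-817128, minus strand): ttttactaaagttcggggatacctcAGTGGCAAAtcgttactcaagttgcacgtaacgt
RPN10 (YHR200W, chrVIII:498953-499011, plus strand): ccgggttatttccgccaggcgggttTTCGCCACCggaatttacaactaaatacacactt
RPN13 (YLR421C, chrXII:965641-965699, minus strand): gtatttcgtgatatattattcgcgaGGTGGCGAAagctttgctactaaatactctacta
SEM1 (YDR363W-A, chrIV:1201992-1202050, plus strand): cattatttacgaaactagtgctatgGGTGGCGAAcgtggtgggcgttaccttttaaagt
In PRE4 and RPN10 the capitals are the reverse complement, because the match lies on the opposite strand.

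Per kilobase of coding sequence, the subunit transcripts were compared with each other only, not with other genes. Levels were taken as CPM (counts scaled to the library total and to TMM factors) divided by coding length. In the wild type without CFW the group means ran from 166 CPM per kb for RPN1 (YHR027C), a large scaffold of the base, to 586 for SCL1 (YGL011C) of the alpha ring, a ratio of 3.54, and 26 of the 33 lay within 1.5-fold of the median of 354. Ordered by level, 17 of the 32 pairs of neighbours overlapped between their libraries. The order depends on the division by length. Before it, RPN1 (2982 nt) had a mean of 494 CPM in this group and SEM1 (270 nt) had 127. Per kb, SEM1 lay at 469, above RPN1 at 166. How far the levels per kb of genes and subcomplexes follow coding length was not tested. Averaged over all libraries, the median level per kb was 483 in the beta ring, 437 in the alpha ring, 328 in the ATPase ring, 319 in the lid and 246 in the other base subunits. PUP1 (YOR157C), which carries the trypsin-like active site, was the lowest of the beta ring at 216 CPM per kb, and RPN9 (YDR427W) was the lowest of the lid at 201. The highest mean was over the lowest by 3.10 to 3.54 times in the 4 groups. RPN1 was the lowest in each, and the highest was SCL1 except in the wild type with CFW, where it was PRE9 (YGR135W). Some genes moved within the order. Counted from the highest, SEM1 ranked 7 and 2 in the wild type without and with CFW, and 11 and 12 in mub1. In the same order of groups PRE4 ranked 17, 15, 9 and 8, and RPT6 ranked 13, 18, 7 and 10. Spearman's rho of the 33 levels with those of the wild type without CFW was 0.97, 0.95 and 0.95 in the other groups, across genes that share the same libraries.

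**Figure D1:**
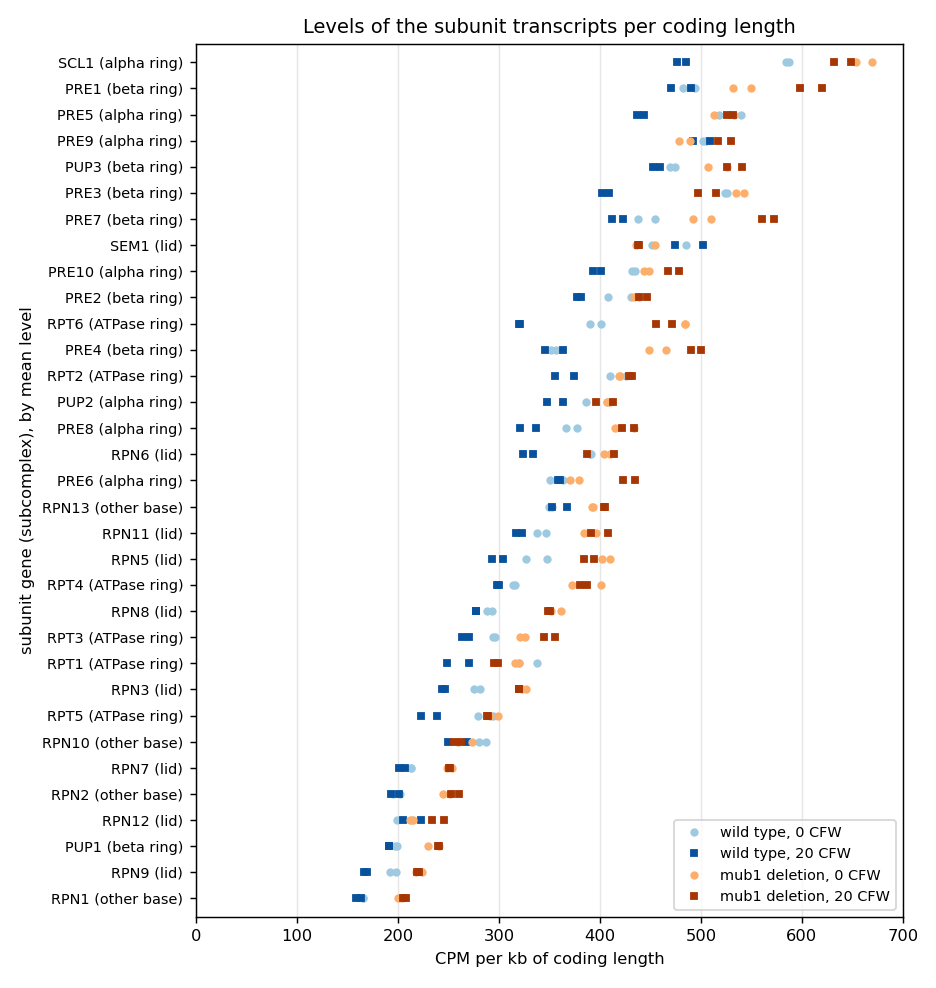
Level of each subunit transcript in CPM per kb of coding length (horizontal axis, linear), by subunit gene in order of mean level (vertical axis). Each point is 1 library, coloured by group. RPN1 lies at the foot, between 158 and 208, and SCL1 at the head.

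Summed over the 33 genes, the level was 11421 ± 102 CPM (SD, n = 2) in the wild type without CFW and 10359 ± 22.0 with CFW. In mub1 it was 12633 ± 39.2 without CFW and 12834 ± 47.7 with CFW. The sum was thus lowest in the wild type with CFW and highest in mub1 with CFW, and no library of one group reached the range of another. Core particle genes gave 4497, 4106, 4842 and 5042 CPM in the same order of groups, and regulatory particle genes gave 6924, 6253, 7790 and 7791. These sums were not tested. In bulk RNA, fewer cells with a transcript and less of it in each cell cannot be told apart.

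**Figure D2:**
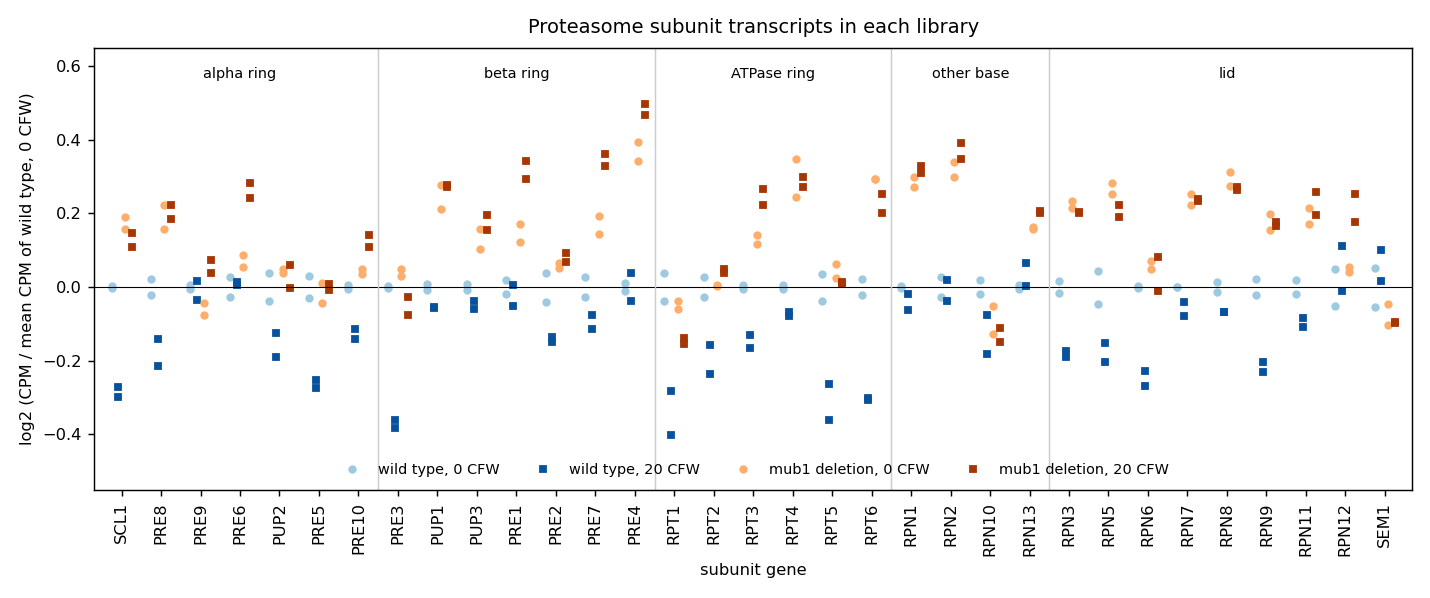
Level of each subunit transcript in each library as log2 of its CPM over the mean of the wild type without CFW (vertical axis), by subunit gene grouped by subcomplex (horizontal axis). Each point is 1 library. Points of the wild type with CFW lie lowest for PRE3, RPT1 and RPT5, and the mub1 libraries lie highest for PRE4.

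The genotypes were first compared in the medium without CFW. Of the 33 genes, 10 were higher in mub1 in the quasi-likelihood test of edgeR (Benjamini-Hochberg adjusted p under 0.05 over 5954 genes), where 22.1% of all tested genes were higher. None was lower, against 20.8% of all tested genes, and none was lower at an unadjusted p under 0.05 or by DESeq2. The median log2 fold change of the subunits was 0.15 (10.7% higher), beside -0.01 over all tested genes, and 28 of the 33 values were positive. Both mub1 libraries lay above both wild-type libraries for 24 subunits, where 37.8% of all tested genes did so. They lay below both for 2 subunits, PRE9 and RPN10, and for 2363 of the 5954 tested genes. By role, 0 of 7 alpha ring genes, 2 of 7 beta ring genes, 2 of 6 ATPases, 2 of 4 other base genes and 4 of 9 lid genes rose.

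PRE4 (YFR050C), a beta subunit without an active site, had 286 and 282 CPM in the wild type and 359 and 373 in mub1. It rose by 0.37 ± 0.07 on the log2 scale (± SE, adjusted p = 0.00332), the largest rise among the subunits in this medium. RPN8 (YOR261C), the lid partner of the deubiquitinase Rpn11, had 299 and 293 CPM in the wild type and 367 and 357 in mub1, a rise of 0.29 ± 0.07 (adjusted p = 0.0082). Neither gene overlapped between the genotypes. PUP1, with the trypsin-like site, had 155 and 157 CPM in the wild type and 181 and 189 in mub1 and rose by 0.24 ± 0.06 (adjusted p = 0.0118). RPN2 (YIL075C), the other large scaffold of the base, had 574 and 553 CPM in the wild type and 693 and 713 in mub1, a rise of 0.32 ± 0.08 (adjusted p = 0.014). In the ring of ATPases that unfolds substrates, RPT4 (YOR259C) rose by 0.30 ± 0.08 (adjusted p = 0.0142), from 415 and 412 CPM to 527 and 489.8, and RPT6 (YGL048C) by 0.29 ± 0.08 (adjusted p = 0.0147), from 489 and 475 to 590.0 and 590.4. The others that rose were the scaffold RPN1 and the lid subunits RPN3, RPN5 and RPN7, by 0.22 to 0.29.

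The other catalytic subunits did not pass in this medium. PRE3 (YJL001W), with the caspase-like site, had 339 and 341 CPM in the wild type and 352 and 347 in mub1, and PRE2 (YPR103W), with the chymotrypsin-like site, had 352 and 372 CPM in the wild type and 375 and 379 in mub1. Their log2 values of 0.04 ± 0.07 and 0.06 ± 0.07 did not pass the test. RPN11 (YFR004W), the deubiquitinase of the lid, had 319 and 311 CPM in the wild type and 365 and 354 in mub1 and missed the threshold narrowly, at 0.19 ± 0.07 (adjusted p = 0.0554). The count of 10 fell to 2 without wild type replicate 1, 1 without wild type replicate 2, 2 without mub1 replicate 1 and 3 without mub1 replicate 2. In those fits 13.4% to 16.9% of all tested genes were higher, and the subunits' median log2 stayed between 0.14 and 0.16. The count was 16 without either wild-type library with CFW, and also 16 when only the 4 libraries compared were fitted, beside 26.7% to 27.1% of all genes and a median of 0.15. PRE4 kept its call in every alternative run.

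With CFW the difference between the genotypes took in most of the proteasome. Of the 33 genes, 26 were higher in mub1, where 18.6% of all tested genes were. None was lower by edgeR's quasi-likelihood test, by DESeq2 or at an unadjusted p under 0.05, where 17.3% of all tested genes were lower at the adjusted threshold. The median log2 fold change was 0.32, beside -0.01 over all tested genes. Both mub1 libraries lay above both wild-type libraries for 31 of the 33, where 33% of all tested genes did so. All 7 beta ring genes rose, as did 5 of 7 in the alpha ring, 5 of 6 ATPases, 2 of 4 other base genes and 7 of 9 in the lid.

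RPT6 had 391 and 389.9 CPM in the wild type with CFW and 554 and 574 in mub1, the largest rise at 0.53 ± 0.08 (adjusted p = 0.000902). PRE4 had 276 and 291 CPM in the wild type and 401 and 393 in mub1, a rise of 0.48 ± 0.07 (adjusted p = 0.000973). PRE7 (YBL041W), another beta subunit without an active site, had 299 and 307 CPM in the wild type and 407 and 415 in mub1, a rise of 0.44 ± 0.07 (adjusted p = 0.00159). In none of these did the genotypes overlap. In the alpha ring, which gates the entry to the core, SCL1 had 369 and 362 CPM in the wild type and 479 and 493 in mub1, a rise of 0.41 ± 0.08 (adjusted p = 0.00285). PRE8 (YML092C) of the same ring had 241 and 254 CPM in the wild type and 327 and 318 in mub1, a rise of 0.38 ± 0.07 (adjusted p = 0.00302). The lid subunit RPN9 had 197 and 200.4 CPM in the wild type and 261 and 259 in mub1, a rise of 0.39 ± 0.06 (adjusted p = 0.0016).

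All 3 catalytic subunits rose in this medium. PRE3 had 261 and 265 CPM in the wild type and 322 and 334 in mub1, a rise of 0.32 ± 0.07 (adjusted p = 0.00635). PUP1 had 149.9 and 150.3 CPM in the wild type and 188 and 189 in mub1, a rise of 0.33 ± 0.06 (adjusted p = 0.00329). PRE2 had 329 and 326 CPM in the wild type and 379 and 386 in mub1, a rise of 0.22 ± 0.07 (adjusted p = 0.04). The deubiquitinase RPN11 had 292 and 297 CPM in the wild type and 376 and 360.2 in mub1 and rose by 0.32 ± 0.07 (adjusted p = 0.0073). The call of PRE3 was lost without mub1 replicate 2 with CFW, that of RPN11 without replicate 1, and that of PRE2 without any 1 of 6 libraries, all but the wild-type ones with CFW.

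The 7 subunits that did not pass are named here with their log2 values. In the alpha ring they were PRE9, the alpha subunit that yeast can live without (0.06 ± 0.07), and PUP2 (0.19 ± 0.07). RPT1 was at 0.19 ± 0.08, and the lid subunit RPN12 at 0.16 ± 0.07. Both ubiquitin receptors of the base that are not scaffolds missed it, RPN10 at -0.00 ± 0.07 and RPN13 at 0.17 ± 0.06. SEM1, the smallest lid subunit, had 128 and 136 CPM in the wild type and 118 and 118 in mub1 (-0.16 ± 0.07, adjusted p = 0.113), the only subunit with both mub1 libraries below both wild-type libraries. Without mub1 replicate 1 or 2 with CFW, the count of 26 fell to 14 and 15, and with only the 4 libraries compared it was 15. In those fits 11.4%, 12.1% and 12.9% of all tested genes were higher, and the subunits' median log2 stayed at 0.32. The calls of 11 subunits were kept in every alternative run: SCL1, PRE8, PUP1, PRE7, PRE4, RPT3, RPT6, RPN3, RPN5, RPN8 and RPN9.

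**Figure D3:**
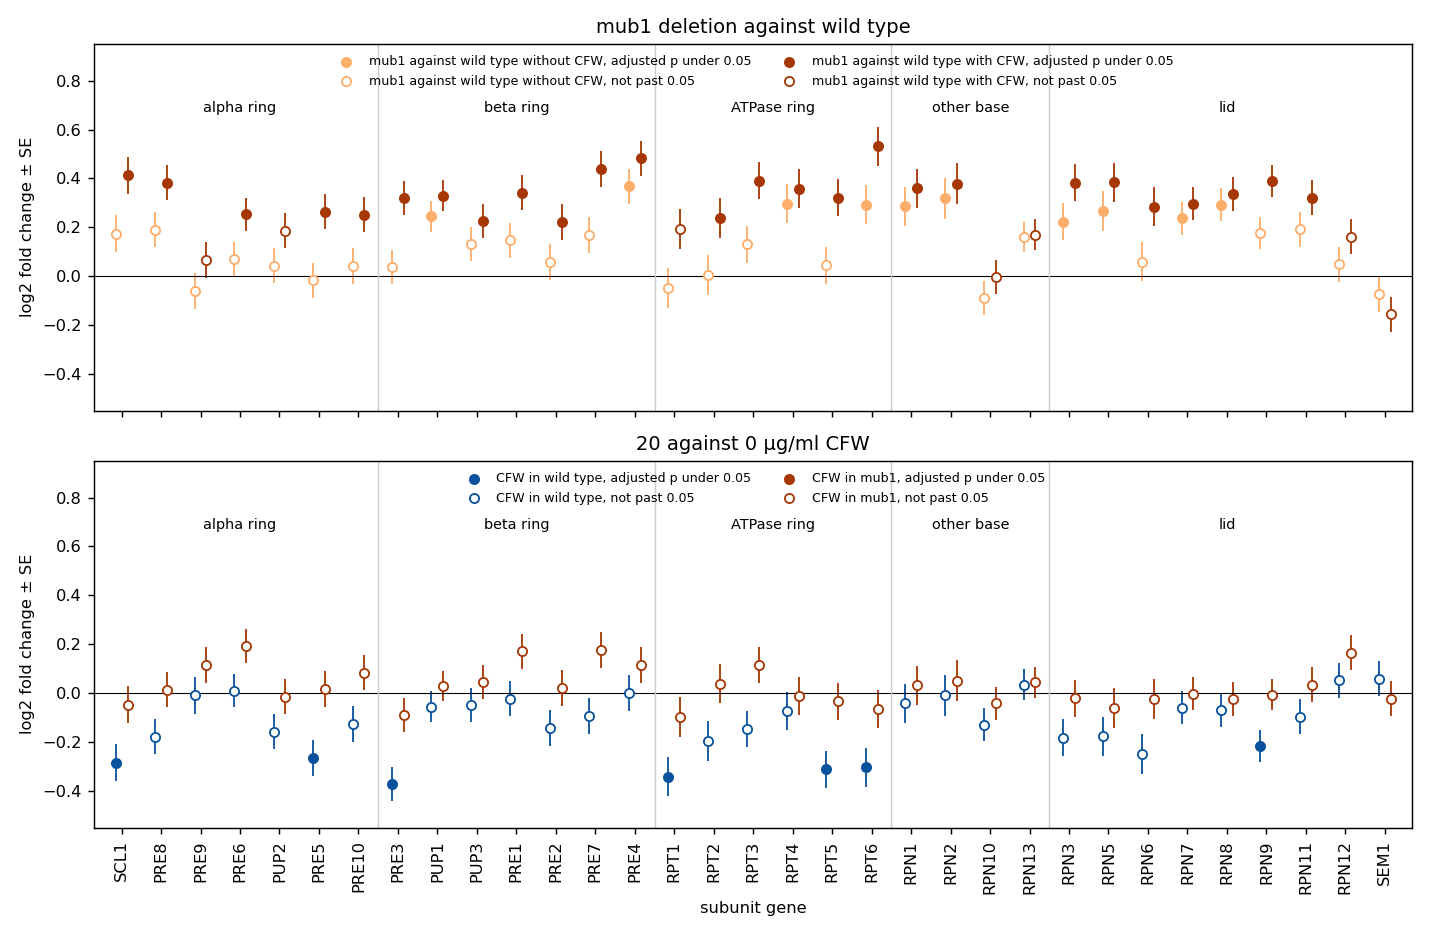
Log2 fold change ± SE of each subunit transcript (vertical axes), by subunit gene grouped by subcomplex (horizontal axis). The upper panel gives mub1 against wild type in each medium and the lower panel 20 against 0 µg/ml CFW in each genotype. Filled points passed the adjusted threshold of 0.05, 10 and 26 above, 7 and 0 below.

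The response of the wild type to CFW went the other way. None of the 33 genes rose by edgeR's quasi-likelihood test, by DESeq2 or at an unadjusted p under 0.05, where 10.3% of all tested genes rose at the adjusted threshold. Those that fell were 7, where 8.7% of all tested genes fell. The median log2 fold change was -0.13 (a change of -8.40%), beside -0.01 over all tested genes, and 28 of the 33 values were negative. Both libraries with CFW lay below both without it for 25 subunits, where 31.4% of all tested genes did so. The 7 were 3 ATPases, 2 alpha ring genes, 1 beta ring gene and 1 lid gene.

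PRE3, with the caspase-like site, had 339 and 341 CPM without CFW and 261 and 265 with it, and fell most, with a log2 change of -0.37 ± 0.07 (adjusted p = 0.00739). RPT1 (YKL145W) had 474 and 449.7 CPM without and 380.0 and 349 with CFW (-0.34 ± 0.08, adjusted p = 0.0201). RPT5 (YOR117W) had 383 and 364 CPM without CFW and 311 and 291 with it (-0.31 ± 0.08, adjusted p = 0.0228). None of these genes overlapped between media. RPT6 had 489 and 475 CPM without CFW and 391 and 389.9 with it (-0.30 ± 0.08, adjusted p = 0.0276). SCL1 had 444 and 446 CPM without CFW and 369 and 362 with it (-0.28 ± 0.08, adjusted p = 0.031). PRE5 (YMR314W), also of the alpha ring, had 380.4 and 365 CPM without CFW and 313 and 308 with it (-0.26 ± 0.07, adjusted p = 0.0339). RPN9 was the seventh to fall, at -0.22 ± 0.06. The other catalytic subunits did not pass, with PUP1 at -0.05 ± 0.06 and PRE2 at -0.14 ± 0.07, nor did RPN11 at -0.10 ± 0.07.

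None of these 7 calls was kept in every alternative. Without wild type replicate 1 or 2 without CFW, or with only the 4 libraries compared, 0 of 33 subunits fell. The calls over all tested genes dropped in the same fits, from 8.7% to 1.17%, 1.47% and 1.54%, while the subunits' median log2 stayed at -0.11 in each. Without wild type replicates 1 and 2 with CFW the counts were 9 and 7, beside 14.7% and 10.6% of all genes. Without the 4 mub1 libraries in turn they were 3, 3, 2 and 3, beside 4.91% to 6.12% of all genes. With unscaled library totals 4 fell (5.39% of all genes), and DESeq2 called 10 (10.1%).

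In mub1 the subunits as a group showed no such fall. By edgeR's quasi-likelihood test 0 of 33 rose and 0 fell with CFW, where 13.8% and 14% of all tested genes did. At an unadjusted p under 0.05 there were 4 higher and 0 lower. Of the 5954 tested genes, 2462 had such a p in either direction, so 4 of 33 is below the share of all genes. DESeq2 called 1 subunit higher, PRE6, and 0 lower, beside 15.4% and 16.1% of all tested genes. The median log2 fold change was 0.02, beside 0.00 over all tested genes, and 18 of the 33 values were positive. The smallest p belonged to PRE6 (YOL038W) of the alpha ring, which had 289.9 and 284 CPM without CFW and 332 and 323 with it (0.19 ± 0.07, adjusted p = 0.0615). PRE7 followed, with 370.1 and 358 CPM without CFW and 407 and 415 with it (0.18 ± 0.07, adjusted p = 0.0981). Neither overlapped between media. PRE3 (-0.09 ± 0.07), PUP1 (0.03 ± 0.06), PRE2 (0.02 ± 0.07) and RPN11 (0.03 ± 0.07) did not pass.

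Whether the response to CFW differed between the genotypes was tested directly as an interaction. By edgeR's quasi-likelihood test 0 of 33 subunits passed in either direction, where 0.89% of all tested genes were higher and 1.61% lower. At an unadjusted p under 0.05, 6 subunits were higher and 0 lower. Of the 5954 tested genes, 1433 had such a p in either direction, so 6 of 33 is below the share of all genes. DESeq2 called 0 subunits in either direction, beside 3.8% of all tested genes higher and 5.53% lower. Without wild type replicate 1 with CFW, 3 (PRE5, RPT1 and RPT5) passed as higher, where 14.5% of all tested genes were higher and 15.2% lower, so 3 of 33 is below the share of all genes. The fall in the wild type and its absence among the calls in mub1 are therefore not shown to differ for any single subunit. The estimates had 1 sign: the response was more positive in mub1 for 32 of the 33, all but SEM1, beside 49.4% of all tested genes, with a median of 0.16 beside -0.00. These estimates all rest on the same 8 libraries. PRE3 had the smallest p, with a response of -0.37 in the wild type and -0.09 in mub1, a difference of 0.28 ± 0.10 (adjusted p = 0.13). PRE5 came next, with -0.26 in the wild type, 0.02 in mub1 and a difference of 0.28 ± 0.10 (adjusted p = 0.139).

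Averaged over both media, which uses all libraries for the genotypes, 25 of 33 subunits were higher in mub1 by edgeR's quasi-likelihood test, where 26.7% of all tested genes were. None was lower, where 26.2% of all tested genes were, and 1 was lower at an unadjusted p under 0.05 and 0 by DESeq2. The median log2 fold change was 0.24 (18.4% higher), beside -0.01 over all tested genes. The 6 smallest p belonged to PRE4 (0.42 ± 0.05), RPT6 (0.41 ± 0.06), PUP1 (0.29 ± 0.04), RPN8 (0.31 ± 0.05), RPN9 (0.28 ± 0.05) and PRE7 (0.30 ± 0.05), with adjusted p from 0.000132 to 0.000948. Of the 25 calls, 17 were kept in every alternative run.

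Sorted by the promoter letters, both kinds of subunit gene were among those that rose. With the exact 9 letters, 22 of 27 were higher in mub1 over both media, where 26.7% of all tested genes were. Their median log2 was 0.26 and all 27 values were above 0, beside 48.5% of all tested genes. Without the 9 letters, 3 of 6 were higher and the median was 0.14. Among the 3 with G1A, PUP1 (0.29 ± 0.04) and RPN8 (0.31 ± 0.05) rose and PRE5 (0.12 ± 0.05) did not pass. Among the 3 with A7G, RPN13 (0.17 ± 0.04) rose, and RPN10 (-0.05 ± 0.05) and SEM1 (-0.12 ± 0.05), the only subunits with negative values, did not pass. An exact match did not go with a rise in every case. PRE9, whose window is printed above, had 390.2 and 393 CPM in the wild type without CFW, 396 and 382 with it, 372 and 379.9 in mub1 without CFW and 412 and 402 with it, and was at 0.00 ± 0.05 over both media. In the wild type with CFW, the medians of the response were -0.14 with the exact letters and -0.06 without. The division of the 6 by their differing letter was made after the values were known, and none of these groups was compared by a test.

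**Figure D4:**
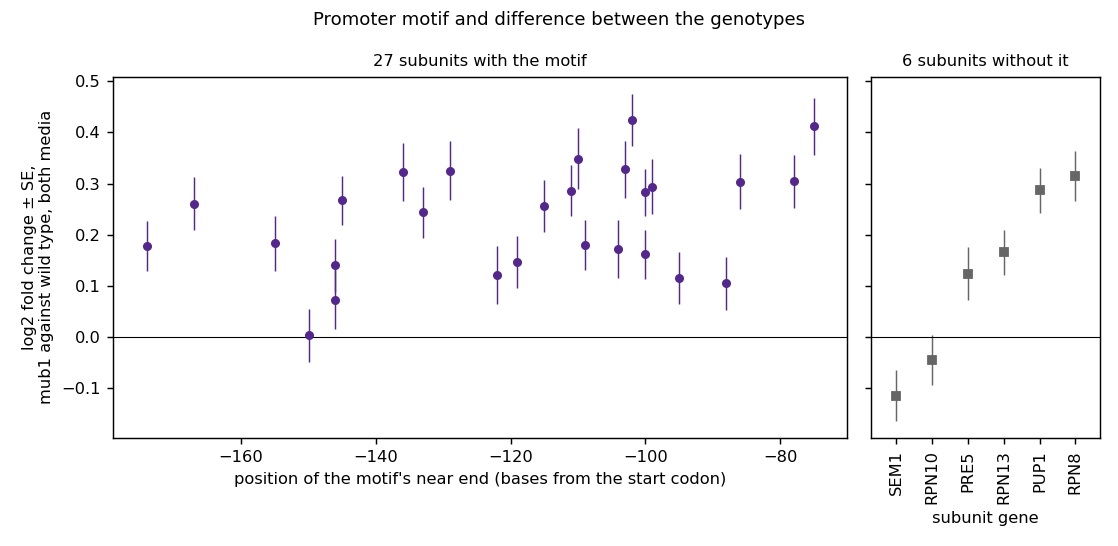
Log2 fold change ± SE, mub1 against wild type over both media (vertical axis). On the left stand the 27 subunits with the exact 9 letters by distance of the match from the start codon in bases, 75 to 174; on the right, the 6 without. Values with the letters run from 0.00 to 0.42 and those without from -0.12 to 0.31; the 2 below 0 are RPN10 and SEM1.

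Factors that build or cap the proteasome moved unevenly. Of 12 assembly factors and activators, 4 rose and 2 fell in mub1 without CFW, and 5 rose and 0 fell with CFW by edgeR's quasi-likelihood test, with 5 higher and 0 lower at an unadjusted p under 0.05. Of all tested genes, 22.1% were higher and 20.8% lower without CFW, and 18.6% and 17.3% with it, so the 2 of 12 that fell are not above the share of all genes. ECM29, which tethers the core to the regulatory particle and whose window holds the 9 letters, had 86.6 and 89.8 CPM in the wild type without CFW, 81.3 and 76.2 with it, 113 and 109 in mub1 without CFW and 132 and 131 with it. It rose in mub1 by 0.33 ± 0.07 without CFW (adjusted p = 0.0044) and 0.74 ± 0.07 with it (adjusted p = 6.94e-05), a larger estimate than that of any subunit in the second medium. NAS2, a chaperone of the base, rose by 0.45 ± 0.08 (adjusted p = 0.00167) without CFW. UMP1, the maturation factor of the core, rose by 0.45 ± 0.07 with CFW (adjusted p = 0.000842), and ADD66, a chaperone of alpha ring assembly, by 0.38 ± 0.08 (adjusted p = 0.00504). Those that fell, without CFW, were the alpha ring chaperone IRC25 (-0.42 ± 0.09) and BLM10, a cap of the core particle (-0.33 ± 0.07). The call of BLM10 was lost without mub1 replicate 1 without CFW, and that of ADD66 without mub1 replicate 1 with CFW.

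With CFW, the base chaperone RPN14 fell in the wild type (-0.36 ± 0.07) and in mub1 (-0.29 ± 0.07), and PBA1, the partner of ADD66, rose in both (0.28 ± 0.07 and 0.36 ± 0.07). These were the only calls of the 12 in the wild type, where 10.3% of all tested genes rose and 8.7% fell. In mub1, 3 of the 12 rose and 3 fell, beside 13.8% and 14% of all tested genes. TMA17, a base chaperone known to be induced by stress, fell most: it had 322 and 306 CPM in the wild type without CFW, 259.9 and 334 with it, 382 and 394 in mub1 without CFW and 266 and 255 with it (-0.57 ± 0.11 in mub1, adjusted p = 0.0061). Leaving out mub1 replicate 2 with CFW ended the call of TMA17, and leaving out either wild-type library without CFW ended those of RPN14 and PBA1 in the wild type. In mub1 both were lost without replicate 1 without CFW and kept without either wild-type library of either medium.

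Of 10 genes listed as proteasome-bound enzymes and shuttle factors, 1 rose in mub1 without CFW and 5 with CFW. None fell by edgeR's quasi-likelihood test or DESeq2 in either medium. Of all tested genes 22.1% were higher without CFW and 18.6% with it, so 1 of 10 is below the share of all genes. At an unadjusted p under 0.05, 0 were lower without CFW and 2 with it. The 1 was DDI1, a shuttle factor, with 177 and 174 CPM in the wild type without CFW, 139 and 154 with it, 239 and 220.1 in mub1 without CFW and 209 and 203 with it. It rose by 0.39 ± 0.08 without CFW (adjusted p = 0.00312) and 0.49 ± 0.08 with it (adjusted p = 0.0011). UFD1, a cofactor of the unfoldase Cdc48, rose by 0.42 ± 0.07 with CFW and the shuttle RAD23 by 0.25 ± 0.07. UBP6, the deubiquitinase of the base, and HUL5, a ligase on the proteasome, rose by 0.23 and 0.21. With CFW, RAD23 (-0.30 ± 0.07) and DDI1 (-0.26 ± 0.08) fell in the wild type, where 8.7% of all tested genes fell. Both calls were lost without either wild-type library without CFW. In mub1 only UFD1 passed (0.24 ± 0.07), where 13.8% of all tested genes rose, and not without any 1 of 6 libraries, all but the wild-type ones with CFW. The calls of DDI1 and UFD1 between the genotypes were kept in every alternative, and those of RAD23, UBP6 and HUL5 with CFW were lost without either mub1 library with CFW. Averaged over both media, 4 of the 10 were higher in mub1 and 1 lower by edgeR's quasi-likelihood test. Of all tested genes, 26.7% were higher and 26.2% lower there.

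The transcript of RPN4 itself had 272 and 267 CPM in the wild type without CFW, 308 and 376 with it, 378 and 327 in mub1 without CFW and 391 and 423 with it. It rose in mub1 without CFW by 0.38 ± 0.11 (adjusted p = 0.0197) and did not pass with CFW at 0.25 ± 0.11 (adjusted p = 0.107), and the first call was lost without any 1 of 3 libraries, both wild-type ones and mub1 replicate 1. UBR2, the ligase gene, had 49.9 and 49.1 CPM in the wild type without CFW, 48.9 and 50.6 with it, 57.4 and 59.9 in mub1 without CFW and 59.7 and 60.7 with it, a rise in mub1 of 0.25 ± 0.07 and 0.27 ± 0.07 in the 2 media (adjusted p = 0.0182 and 0.0126). The first of these calls was lost without any 1 of the 4 libraries compared, the other without either mub1 library. The conjugating enzyme gene RAD6 did not pass in either, at -0.07 ± 0.07 and -0.02 ± 0.07. Among regulators known to act on RPN4 transcription, YAP1 rose in both media (0.41 ± 0.08 and 0.55 ± 0.08), and its window also holds the 9 letters; both calls were kept in every alternative. PDR3 fell without CFW (-0.39 ± 0.11), PDR1 rose with CFW (0.35 ± 0.09), and HSF1 did not pass (0.13 ± 0.10 and 0.13 ± 0.10). The call of PDR3 was lost without any 1 of 3 libraries of that medium, all but mub1 replicate 2, and that of PDR1 without either mub1 library. The amount of Rpn4 protein was not measured here.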

How the data were processed

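The authors deposited raw, whole-number gene counts of 8 libraries, without any scaling. Per the submitters' processing notes, reads were checked with FastQC 0.12.1, aligned with HISAT2 2.2.1 to build R64 and counted with featureCounts 2.0.3; the strand setting is not given in the sources used here, and no annotated gene overlaps a subunit gene. In R 4.3.3, edgeR 4.0.16 kept 5954 of 6534 genes (filterByExpr), scaled by TMM, fitted a mean per group over all libraries (4 residual degrees of freedom) and ran robust quasi-likelihood tests. The threshold was a Benjamini-Hochberg adjusted p of 0.05, over all genes that entered a test. DESeq2 1.42.0 served as an alternative. Total counts of 24147195 to 31677985 leave little counting error at these levels. The steps were tested on simulated counts. Promoter windows were read from the RefSeq R64 genome. The labels name no batch. Members and lists were chosen with earlier results of these data known, and the 3 lists beside the subunits from general knowledge of the proteasome. Values per library are given for the catalytic subunits, RPN11, up to 6 called members with the smallest p per comparison (2 where none passed) and regulators of Rpn4. Alternatives were other scalings, no filter, only the groups compared, a replicate block and each library left out.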

Additional observations from a re-analysis of the deposited data

How the results depend on the processing

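Every alternative kept the direction of each call among the subunits and the 3 lists beside them, and what changed was which values passed. Over single genes, 8425 values kept their side of the threshold, 518 were no longer past it, 206 newly passed and 2 reversed. Both reversals lie outside the subunits, in genes whose main value did not pass: NOP14 with CFW ran from -0.32 to 0.25, and ACS1 over both media from -0.24 to 0.18, each between the fits without wild type replicate 1 or 2 with CFW. With only the groups compared, 16 subunits rose in mub1 without CFW (10 in the full fit) and 15 with CFW (26), 0 fell with CFW in the wild type (7), and 3 rose with CFW in mub1 (0), namely PRE6, PRE1 and PRE7, beside 21.5% of all genes; fewer libraries enter that fit. PRE6 alone rose there with upper-quartile scaling (1), library totals (1) and DESeq2 (1), beside 16.9%, 16.8% and 15.4% of all tested genes. With library totals 4 fell with CFW in the wild type, and over all genes 716 rose and 321 fell there, against 616 and 518 with TMM. With upper-quartile scaling 1 subunit, SEM1, fell in mub1 over both media, beside 28% of all tested genes. Leaving out each library in turn, the subunits that rose in mub1 numbered 1 to 16 without CFW, 14 to 28 with CFW and 18 to 28 over both media. Those that fell in mub1 numbered 0 to 1 with CFW and 0 to 1 over both media (SEM1, without wild type replicate 1 with CFW). Those that fell with CFW in the wild type numbered 0 to 9, those that rose with CFW in mub1 0 to 4, and those higher in the interaction 0 to 3. Calls over all genes moved with them: 14.7% fell in the wild type where 9 subunits did and 1.17% and 1.47% where 0 did. Where 4 rose in mub1 21.5% and 21.8% of all genes rose, and where 3 were higher in the interaction 14.5% were, so those 4 and 3 of 33 are below the share of all genes. Where a group keeps 1 library, that library is assumed to vary like the other groups. The labels do not state whether libraries with the same replicate number belong together. Differences between replicates correlated from -0.23 to 0.28 between groups. The correlations were -0.23, -0.18 and -0.14 in the pairs with the wild type with CFW, and 0.19, 0.11 and 0.28 in the other pairs. These values do not decide whether the libraries are paired. With a replicate block 3 subunits fell with CFW in the wild type, beside 6.05% of all tested genes. A block with the numbers of the wild type with CFW crossed was chosen after seeing the data. With it 7 fell with CFW in the wild type, beside 10% of all tested genes. In the same fit 26 were higher in mub1 with CFW, beside 19.7%. The motif search gave 27 members with 250 bases before the start alone or with the first 7 letters, and 33 with 1 different letter.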

Other observations

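The 9 letters GGTGGCAAA also lay in the windows of 45 genes outside the proteasome, 44 of them in the tested table. Over both media, 17 of the 44 were higher in mub1 and 7 lower by edgeR's quasi-likelihood test, beside 26.7% and 26.2% of all tested genes, with a median log2 of 0.06. The largest rises were those of YBR284W (0.99 ± 0.09, log2 ± SE), MEF2 (0.82 ± 0.06) and MPO1 (0.82 ± 0.12). Those that rose also include the polyubiquitin gene UBI4 (0.59 ± 0.08), the mitochondrial protease gene PIM1 (0.65 ± 0.05) and CUZ1 (0.54 ± 0.05), whose product binds the proteasome and Cdc48. The 7 that fell were EPL1 (-0.37), NOP14 (-0.35), PDI1 (-0.28), CEG1 (-0.26), HUB1 (-0.21), CCT6 (-0.19) and WSS1 (-0.19). The gene of the ubiquitin-activating enzyme, UBA1, was at 0.01 ± 0.05 and did not pass, and CDC48 was at 0.02 ± 0.07. These genes were named after their values were seen.

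For 7 of the 44, the match is the very site that lies ahead of a subunit gene, since each pair of genes is transcribed in opposite directions from 1 shared intergenic stretch. In these pairs, over both media, the subunit gene and its neighbour often differed. ALG13 (-0.10 ± 0.05) and GCD1 (-0.15 ± 0.08) did not pass, beside rises of 0.41 ± 0.06 and 0.33 ± 0.06 in their partners RPT6 and RPT4. NOP14 fell (-0.35 ± 0.11) beside a rise of 0.33 ± 0.06 in RPN5. MPO1 rose more (0.82 ± 0.12) than its partner SCL1 (0.29 ± 0.05), and YPI1 (0.21 ± 0.06) and YTH1 (0.20 ± 0.05) rose together with RPN11 (0.26 ± 0.05) and RPN7 (0.27 ± 0.05). YOL038C-A (-0.04 ± 0.18), opposite PRE6 (0.16 ± 0.05), did not pass. The call of NOP14 was lost without any 1 of 3 libraries (wild type replicate 2 and mub1 replicate 2 without CFW, mub1 replicate 2 with CFW), that of YPI1 without any 1 of 4 and that of YTH1 without 1, mub1 replicate 1 with CFW. The differences within pairs were not tested.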
